A study of Mus musculus with 8 samples.

Results

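The genes described here are 10: the 5 NFkB subunit genes Nfkb1, Nfkb2, Rel, Rela and Relb, the 3 IkB inhibitor genes Nfkbia, Nfkbib and Nfkbie, and the 2 related genes Lurap1 and Lurap1l. They were taken by symbol from a table of 24341 genes, and all 10 were found in it. The table holds RNA levels in FPKM, the number of sequenced fragments scaled to transcript length and to library size, for 8 mouse pancreas buds, each an individual library, from 5 WT and 3 Lats1/2-null embryos. All buds were taken at E11.0, when embryos have about 40 somites, the strain label of both groups is CD1, and 35 ng of RNA entered each library. The Lats1/2-null embryos carried Pdx1Creearly;Lats1f/f;Lats2f/f, and the label of the controls is WT, with no transgene given, while the study's methods allow WT or heterozygous littermates as controls. The Pdx1 promoter drives this Cre in pancreatic epithelial progenitors, so mesenchyme, vessels and blood in the same bud are not its target. Mesenchyme was pulled off with forceps, which leaves some of it in place. The labels do not give the litters of the buds, so p-values measure the spread between these 8 buds. The comparison asks whether loss of the Hippo kinases Lats1 and Lats2 goes with other RNA levels of the NFkB machinery.

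NFkB transcription factors are dimers of 5 related proteins that share a Rel homology domain. In resting cells IkB proteins hold most dimers in the cytoplasm, and after a signal the IKK complex phosphorylates IkB, IkB is degraded, and the dimers enter the nucleus and switch on genes of inflammation and cell survival. Nfkb1 and Nfkb2 encode long precursors that are cut to p50 and p52, whereas Rela, Rel and Relb encode the subunits with a transactivation domain. Most of this control acts on proteins, which RNA levels do not measure. Nfkbia is itself a textbook NFkB target, so that new IkBα ends the response. Lurap1 encodes an adaptor protein with leucine repeats that binds myotonic dystrophy-related Cdc42-binding kinases and has been tied to canonical NFkB activation, and Lurap1l is its paralog.

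RefSeq promoters (GRCm38.p6, 250 bases before to 50 after the transcription start) were found for 8 of the 10 genes, all but Nfkb1 and Relb. Of these promoters, 3 are printed 5′ to 3′ in the sense of the gene, because they belong to the 2 genes whose buds separated by genotype, Nfkbia and Lurap1l, and to Nfkb2, a subunit gene whose window holds several matches. Capitals mark matches on either strand to the NFkB consensus and to the TATA box letters TATAAA, which reads TTTATA on the other strand.
Nfkbia, chr12:55492598-55492897, minus strand: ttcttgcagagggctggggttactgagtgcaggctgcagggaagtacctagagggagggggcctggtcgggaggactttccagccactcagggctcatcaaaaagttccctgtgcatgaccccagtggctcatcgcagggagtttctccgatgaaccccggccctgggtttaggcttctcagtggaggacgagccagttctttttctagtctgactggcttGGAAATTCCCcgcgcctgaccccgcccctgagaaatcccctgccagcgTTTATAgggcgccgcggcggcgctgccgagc
Nfkb2, chr19:46304487-46304786, plus strand: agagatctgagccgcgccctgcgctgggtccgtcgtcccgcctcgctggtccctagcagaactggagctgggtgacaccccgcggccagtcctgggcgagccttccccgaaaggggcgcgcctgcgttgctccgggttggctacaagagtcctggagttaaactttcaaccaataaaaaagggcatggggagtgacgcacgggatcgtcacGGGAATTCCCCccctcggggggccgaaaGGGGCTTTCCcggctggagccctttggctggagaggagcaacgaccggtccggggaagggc
Lurap1l, chr4:80910436-80910735, plus strand: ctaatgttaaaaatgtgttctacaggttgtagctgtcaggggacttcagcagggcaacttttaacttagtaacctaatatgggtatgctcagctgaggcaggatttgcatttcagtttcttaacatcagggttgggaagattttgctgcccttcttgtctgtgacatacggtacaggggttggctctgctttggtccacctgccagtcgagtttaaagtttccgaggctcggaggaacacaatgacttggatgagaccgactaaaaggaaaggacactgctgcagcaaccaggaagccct
In Nfkbia the match GGAAATTCCC started 29 bases before the annotated start. The TATAAA letters in that window lay on the other strand and 20 bases after the start. In the Nfkb2 window GGGAATTCCC and the overlapping GGAATTCCCC, and separately GGGGCTTTCC, started 39, 38 and 11 bases before the annotated start. Single stretches were also found in Nfkbie (GGGGGATTCC) and Rel (GGGAAATCCCC, which holds overlapping matches). Thus 4 of the 8 genes with a promoter held the consensus in at least 1 window, and Lurap1, Lurap1l, Nfkbib and Rela did not hold it in theirs. Over all 32851 RefSeq promoters the share with this consensus was 8.46%. The letters GGAATG, the core bound by the TEAD partners of YAP, were in 14.7% of all promoters and, on either strand, in 1 of the 8 genes, Nfkb2, in a second window where they overlap an NFkB match. These are matches of letters, and binding was not measured.

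Several facts of the whole series stand beside every value. The steps between low FPKM values put 1 fragment on a transcript of 1000 bases at about 0.0982 to 0.106 FPKM in 7 libraries and at 0.133 FPKM in WT replicate 5, the shallowest, an estimate that rests on 14 to 19 single-exon genes a library. Lats1, which the deletion targets, measured 15.6 ± 0.905 FPKM in the 5 WT buds and 12.1 ± 1.87 FPKM in the 3 Lats1/2-null buds (means ± SD) without overlap, and Lats2 was at 13.8 ± 1.26 and 12.3 ± 1.15 FPKM with overlap. The deleted exons were not analysed here. Defining markers of pancreatic epithelium were abundant in every bud. The summed FPKM of 12 epithelium markers was 251 to 338 in WT and 570, 484 and 1196 in Lats1/2-null replicates 1, 2 and 3. The summed level of 12 endothelial markers was 139 to 243 in WT and 98.5 to 153 in Lats1/2-null buds, and that of the mesenchyme markers 282 to 356 and 136 to 256. The 17 leukocyte markers summed to 22.1 to 44.9 and 36.4 to 48.1 FPKM, with Ptprc at 0.238 to 1.06 FPKM over all buds. The most abundant markers were Krt18 and Krt8 for epithelium, Cdh5 and Kdr for endothelium, Col3a1 and Pdgfra for mesenchyme, and Coro1a and C1qb for leukocytes. In whole buds, fewer cells of a type and less RNA per cell cannot be told apart.

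All 10 genes passed the filter of a mean of at least 0.5 FPKM, which left 13777 genes for limma on log2(FPKM + 1). None of the 10 passed an adjusted p of 0.05 by limma with Benjamini-Hochberg adjustment over those genes, against 0.0145% of all genes tested. At an unadjusted limma p under 0.05 there were 2 of 10, Nfkbia and Lurap1l, against 11.3% of all genes. Nfkbia was the 1 in the lower direction, which 4.99% of all genes took, and Lurap1l the 1 in the higher direction, which 6.29% took. The same 2 genes were those in which no Lats1/2-null bud lay within the WT range, against 7.51% of all genes. Lurap1l was 7.48-fold higher and Nfkbia differed by -26.9% in the mean FPKM of Lats1/2-null buds. The other 8 genes had log2 fold changes from -0.22 to 0.53 with adjusted limma p-values from 0.502 to 0.949. By sign 7 genes were higher (46.9% of all genes were) and 3 lower, although the signs of Rel, Nfkb2 and Nfkbie turned under some settings, and the median log2 fold change was 0.07 beside -0.01 for all genes tested.

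**Figure D1:**
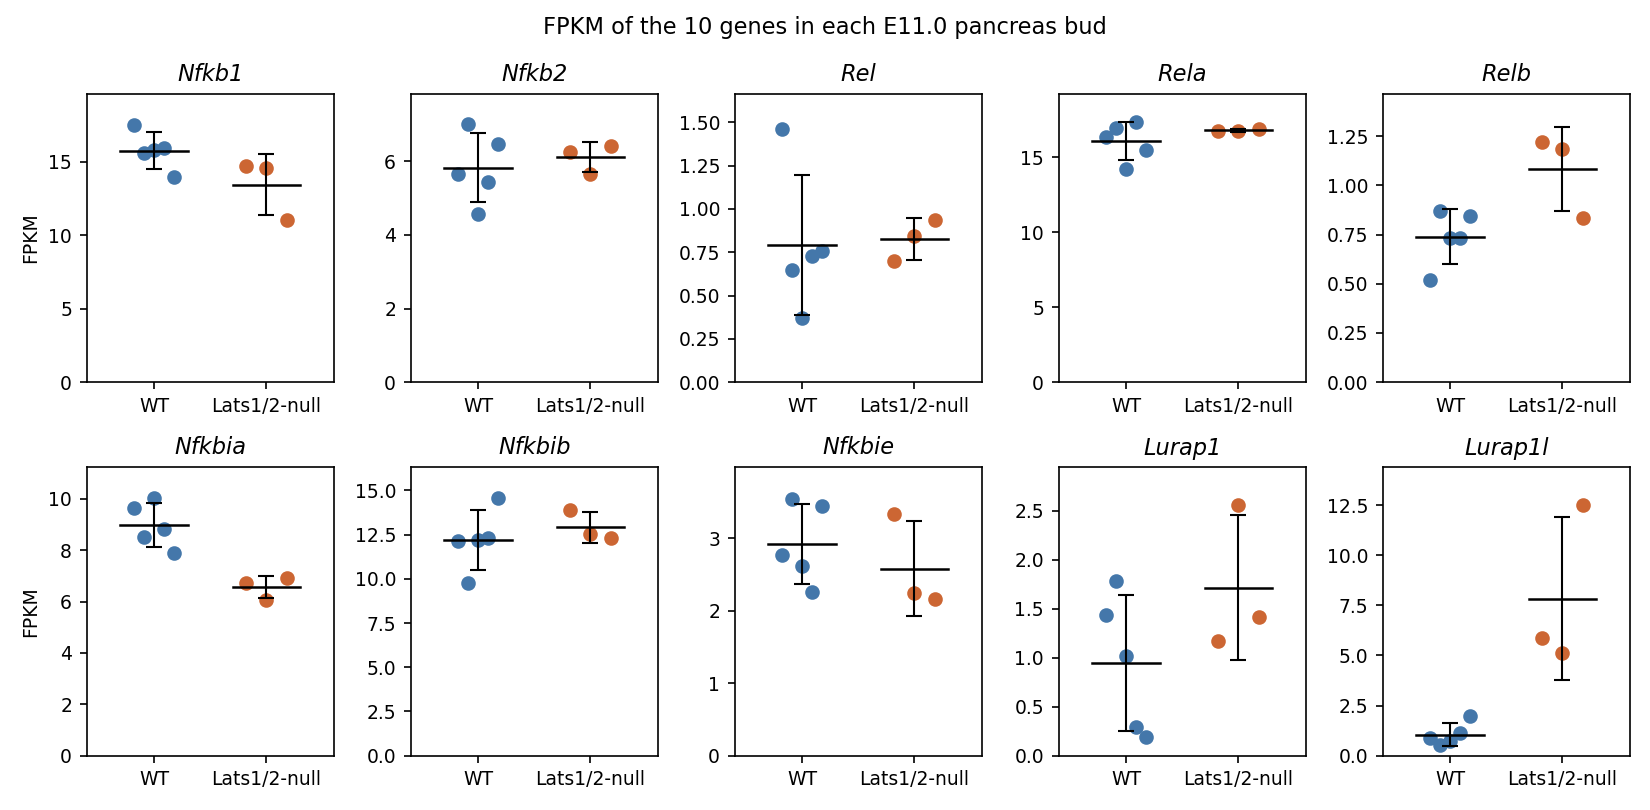
FPKM of the 10 genes in 5 WT buds (blue) and 3 Lats1/2-null buds (orange), each point a bud, with the mean (long bar) and SD (error bar), and with a separate FPKM axis from 0 for each gene. The groups separate only for Nfkbia, with all Lats1/2-null buds below WT, and for Lurap1l, with all of them above.

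In mean FPKM over the 8 buds the order was Rela (16.4), Nfkb1 (14.9), Nfkbib (12.5), Nfkbia (8.08), Nfkb2 (5.93), Lurap1l (3.59), Nfkbie (2.79), Lurap1 (1.23), Relb (0.867) and Rel (0.805). FPKM is a level per length, so these genes can be set side by side. The ranges over buds of all 9 neighbouring pairs in that order overlapped. Within single buds, Nfkbib was above Nfkbia and Nfkbia above Nfkb2 in 8 of 8, whereas Rela was above Nfkb1 in 6 of 8. Nfkb1 and Rela, whose products form the classical p50 and p65 dimer, together made 77.3% to 84.1% of the summed subunit FPKM in every bud. Rel and Relb, which are best known from lymphoid and myeloid cells, made 3.09% to 4.76% in WT and 4.84% to 5.21% in Lats1/2-null buds, without overlap but with a gap far smaller than the spread among WT buds.

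Rela encodes p65 and lies at chr19:5637490-5648130 (mm10). Its FPKM was 16.4, 17.0, 14.2, 17.4 and 15.5 in WT replicates 1 to 5 and 16.8, 16.7 and 16.9 in Lats1/2-null replicates 1 to 3. The 3 Lats1/2-null buds lay inside the WT range, and their spread was 0.0851 FPKM (SD, n = 3). On the log2 scale the difference was 0.06 (SE 0.08) with a 95% interval from -0.11 to 0.24 and an adjusted limma p of 0.813.

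Nfkb1 (p105 and p50, chr3:135584655-135691547) was at 17.5, 15.6, 15.8, 15.9 and 14.0 FPKM in WT and at 14.7, 14.5 and 11.05 FPKM in Lats1/2-null buds. Only Lats1/2-null replicate 3 lay below the lowest WT bud. The log2 fold change was -0.22 (SE 0.11, 95% interval -0.47 to 0.02), with an adjusted limma p of 0.502 and an exact two-sided permutation p of 0.0714. Without Lats1/2-null replicate 3 the log2 fold change was -0.10.

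Nfkb2 (p100 and p52, chr19:46304737-46327156) was at 5.66, 7.01, 4.57, 5.43 and 6.48 FPKM in WT and at 6.26, 5.65 and 6.42 FPKM in Lats1/2-null buds, which all fell inside the WT range. Between the groups the log2 fold change was 0.07 (SE 0.13, 95% interval -0.23 to 0.36) with an adjusted limma p of 0.893, and its sign turned without WT replicate 3 (-0.0027). The study's supplement lists Nfkb2 as several-fold higher in Lats1/2-deficient than in WT pancreata. The deposited values described here do not show that rise, and the reason was not tested. The table gives Nfkb2 and Psd, a neighbouring gene on the opposite strand, a shared interval.

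Relb and Rel were near the low end of what these libraries resolve. Relb (chr7:19606222-19629438), the partner of p52, was at 0.517, 0.869, 0.733, 0.730 and 0.844 FPKM in WT and at 1.22, 1.19 and 0.835 FPKM in Lats1/2-null buds. Replicates 1 and 2 of the Lats1/2-null buds lay above every WT bud and replicate 3 within them. The log2 fold change was 0.26 (SE 0.14, 95% interval -0.06 to 0.58), with an adjusted limma p of 0.552 and an exact permutation p of 0.0714, and these levels stand for about 11 to 27 fragments a bud. The same Lats1/2-null buds had leukocyte marker sums of 48.1, 43.0 and 36.4 FPKM, yet WT replicates 1 and 2 had sums of 43.9 and 44.9 FPKM at a Relb of 0.517 and 0.869. The part of these cells in the Relb level was not tested.

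Rel (c-Rel, chr11:23741729-23770970) was at 1.46, 0.648, 0.369, 0.729 and 0.759 FPKM in WT and at 0.698, 0.842 and 0.936 FPKM in Lats1/2-null buds. WT replicate 1 was the highest and WT replicate 3 the lowest of all 8 buds, and the latter also had the lowest leukocyte marker sum (22.1 FPKM). For Rel the log2 fold change was 0.05 (SE 0.19) with an adjusted limma p of 0.949, and its sign turned with quantile normalization (-0.0034). Rel has a long transcript, and its levels stand for about 26 to 104 fragments a bud. The sum of all 5 subunits overlapped between the groups, with means of 39.2 ± 2.49 FPKM for the 5 WT buds and 38.3 ± 1.86 FPKM for the 3 Lats1/2-null buds (± SD).

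Among the inhibitors only Nfkbia (IkBα) separated the groups. Nfkbia FPKM was 9.66, 8.51, 10.02, 8.84 and 7.89 in WT replicates 1 to 5 and 6.72, 6.08 and 6.90 in Lats1/2-null replicates 1 to 3. Every Lats1/2-null bud was below every WT bud, a pattern that 3.06% of all genes tested showed in this direction. The means were 8.98 ± 0.861 (SD, n = 5) and 6.57 ± 0.434 FPKM (SD, n = 3), a ratio of 0.731. The log2 fold change was -0.40 (SE 0.10, 95% interval -0.62 to -0.17), with an exact permutation p of 0.0179, the smallest that 5 buds against 3 allow. By limma the unadjusted p was 0.00298, rank 197 of 13777, and the adjusted p 0.207. Leaving out each bud in turn kept the log2 fold change between -0.44 and -0.35, and over 16 alternative settings the adjusted limma p ran from 0.0426 to 0.458.

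The interval that the table prints for Nfkbia, chr12:55280814-55492647, is shared by 5 gene names, Psma6 and Ppp2r3c among them, while the GENCODE M21 gene covers chr12:55489410-55492647 on the minus strand. Endothelial marker sums were also lower with genotype, though overlapping: 153, 143 and 98.5 FPKM in Lats1/2-null replicates 1 to 3 and 205, 164, 139, 157 and 243 FPKM in WT. WT replicate 5 had the highest endothelial sum and the lowest Nfkbia of the WT buds, WT replicate 3 the lowest endothelial sum and the highest Nfkbia. Mesenchyme marker sums were lower as well, without overlap: 225, 256 and 136 FPKM in Lats1/2-null replicates 1 to 3 and 348, 346, 282, 285 and 356 FPKM in WT. Within the Lats1/2-null buds the lowest mesenchyme sum (replicate 3) went with the highest Nfkbia. The part of endothelial and mesenchymal cells in the Nfkbia level was not tested.

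Nfkbib (IkBβ, chr7:28756174-28766644) was the most abundant inhibitor RNA. It was at 12.1, 9.77, 12.2, 12.3 and 14.6 FPKM in WT and at 13.9, 12.5 and 12.3 FPKM in Lats1/2-null buds, with every Lats1/2-null bud inside the WT range. Its log2 fold change was 0.08 (SE 0.11, 95% interval -0.18 to 0.34) with an adjusted limma p of 0.836. Nfkbie (IkBε, chr17:45555700-45563168) was at 2.77, 3.54, 2.61, 2.25 and 3.44 FPKM in WT and at 3.33, 2.24 and 2.17 FPKM in Lats1/2-null buds. Replicates 2 and 3 of the Lats1/2-null buds were just under the lowest WT bud, and replicate 1 was among the highest. Its log2 fold change was -0.14 (SE 0.16, 95% interval -0.51 to 0.24) with an adjusted limma p of 0.809, and its sign turned with array weights (0.06).

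Nfkbia was also set against the other genes in the same bud. The ratio of Nfkbia to Rela FPKM was 0.502 to 0.704 in WT and 0.363 to 0.408 in Lats1/2-null buds, without overlap. The ratio of Nfkb1 to Rela FPKM did not overlap either, at 0.900 to 1.11 in WT and 0.653 to 0.875 in Lats1/2-null buds. That gap was small beside the spread among WT buds. The ratio of Nfkbia to Nfkbib FPKM did overlap, at 0.540 to 0.871 in WT and 0.483 to 0.560 in Lats1/2-null buds. The share of Nfkbia in the summed FPKM of the 3 inhibitors was 37.4 ± 3.99% (SD, n = 5) in WT and 29.8 ± 2.18% (SD, n = 3) in Lats1/2-null buds, although WT replicate 5 (30.4%) lay within the Lats1/2-null range. The sum of the 3 inhibitors over the sum of the 5 subunits was 0.618 ± 0.0718 in WT and 0.577 ± 0.0369 in Lats1/2-null buds, which overlapped. The ratios are descriptions and were not tested.

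**Figure D2:**
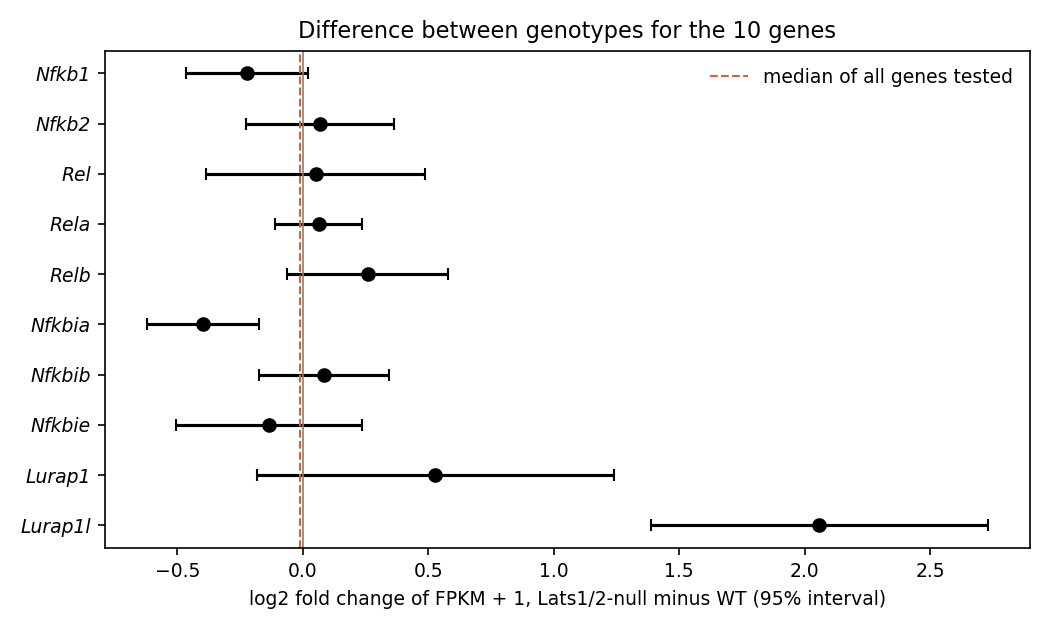
Log2 fold change of FPKM + 1 (Lats1/2-null minus WT, points) with its 95% interval from limma (bars) for the 10 genes, with a dashed line at the median of all genes tested (-0.01). The intervals of Nfkbia (-0.62 to -0.17) and Lurap1l (1.39 to 2.73) lie off 0 and those of the other 8 genes span it; these are intervals without adjustment for the number of genes.

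Lurap1l (chr4:80910686-80954301) had the largest difference of the 10 genes. Its FPKM was 0.871, 0.510, 0.711, 1.15 and 2.00 in WT replicates 1 to 5 and 5.88, 5.12 and 12.5 in Lats1/2-null replicates 1 to 3. All 3 Lats1/2-null buds were above all 5 WT buds, a pattern in this direction shared by 4.46% of all genes tested. The means were 1.05 ± 0.580 (SD, n = 5) and 7.83 ± 4.06 FPKM (SD, n = 3), and the SD of the Lats1/2-null buds rests on the high value of replicate 3. The log2 fold change was 2.06 (SE 0.30, 95% interval 1.39 to 2.73), with an exact permutation p of 0.0179, the smallest possible here.

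By limma the unadjusted p of Lurap1l was 6.58e-05, rank 13 of 13777, and the adjusted p 0.0697. Its ratio of means ranked 22 of 13777. Without Lats1/2-null replicate 3 the ratio of means was 5.25, and without WT replicate 5, the WT bud with the fewest fragments and the highest Lurap1l, it was 9.67. Over 16 alternative settings the adjusted limma p ran from 0.0063 to 0.371 and was under 0.05 in 2 of them, with array weights (0.0063) and without Lats1/2-null replicate 2 (0.0462). At these levels Lurap1l rested on about 15 to 46 fragments in a WT bud and 160 to 377 in a Lats1/2-null bud.

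Between the genotypes epithelium markers were higher along with Lurap1l, but the WT buds did not follow this order. WT replicate 2 had the highest marker sum of the WT buds (338 FPKM) and the lowest Lurap1l (0.510 FPKM). WT replicate 5 had the highest WT Lurap1l (2.00 FPKM) at a sum of 302 FPKM. Of 12 such markers 11 were higher in Lats1/2-null buds, 9 with an unadjusted limma p under 0.05, and the marker sum was highest in Lats1/2-null replicate 3 (1196 FPKM), as was Lurap1l. Per 1000 FPKM of these markers Lurap1l was at 2.90, 1.51, 2.83, 3.95 and 6.60 in WT and at 10.3, 10.6 and 10.4 in Lats1/2-null buds. The groups did not overlap on this scale either, and the ratio of means was 2.94 rather than 7.48. Per 1000 FPKM of Epcam and Cdh1 alone, which encode surface adhesion proteins of epithelia, it was 6.54 to 35.5 in WT and 53.3 to 56.05 in Lats1/2-null buds, a ratio of 3.13. Scaled to either set of markers, Lurap1l was thus still higher in every Lats1/2-null bud, by a smaller ratio. Marker sums are not cell numbers, since Sox9, in the set of 12, is listed by the study as a known TEAD target. The part of the epithelium in the Lurap1l level was not tested.

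**Figure D3:**
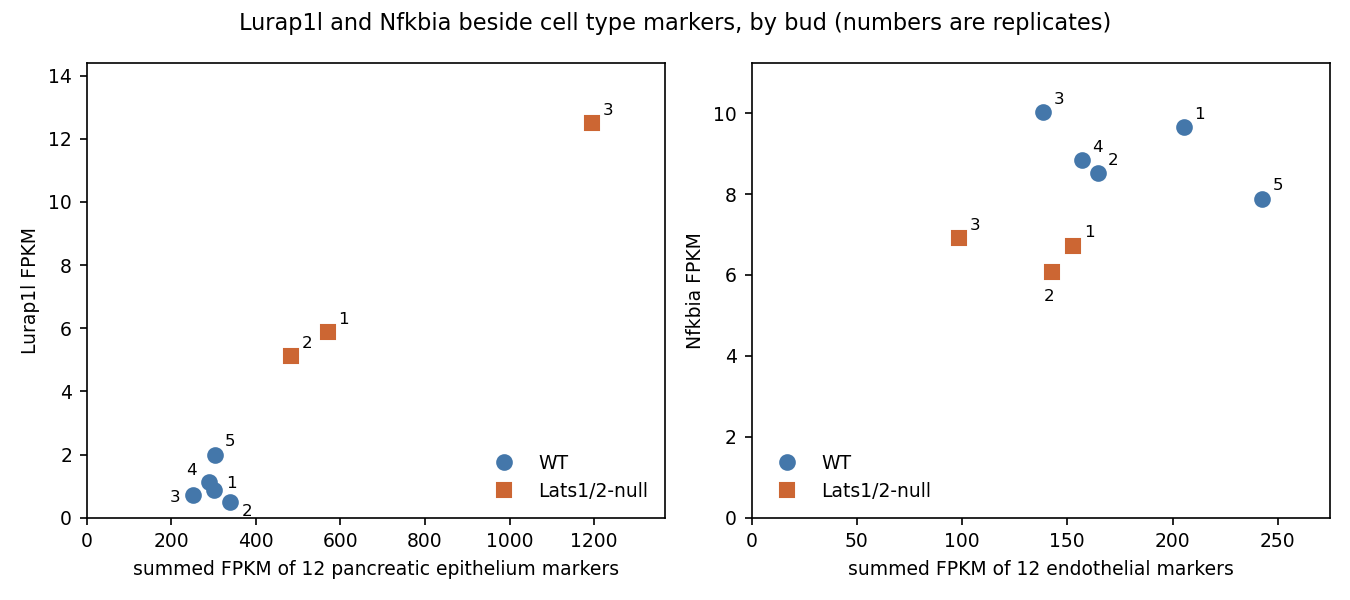
Left, Lurap1l FPKM against the summed FPKM of 12 epithelium markers, and right, Nfkbia FPKM against the summed FPKM of 12 endothelial markers, each point a bud numbered by replicate (circles WT, squares Lats1/2-null), all axes from 0. The Lats1/2-null buds have more of both Lurap1l and epithelium markers (484 to 1196 FPKM beside 251 to 338), while their Nfkbia is low at endothelial sums (98.5 to 153 FPKM) that partly overlap the WT sums; mesenchyme sums, which did not overlap, are not plotted.

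Lurap1 (chr4:116123840-116144616) differed more among WT buds than any other of the 10 genes. It was at 1.44, 1.78, 1.02, 0.293 and 0.194 FPKM in WT and at 1.18, 2.56 and 1.41 FPKM in Lats1/2-null buds. The highest WT value was 9.16-fold the lowest, and only Lats1/2-null replicate 2 was above the WT range. The log2 fold change was 0.53 (SE 0.32, 95% interval -0.18 to 1.24), with an adjusted limma p of 0.582 and an exact permutation p of 0.214, and the ratio of means was 1.82, or 1.37 without Lats1/2-null replicate 2. The low buds, WT replicates 4 and 5, had the highest red blood cell marker sums (15768 and 12065 FPKM, against 2634 to 5794 in the other WT buds and 7965 to 10166 in Lats1/2-null buds), and their Lurap1 stands for about 17 and 8 fragments; the part of blood in this value was not tested. GENCODE places Lurap1 along its whole length opposite Pomgnt1, which was at 15.1 FPKM in WT, and the libraries and counting were stranded. No stretch of 25 bases was shared between transcripts of any of the 10 genes, so Lurap1 and Lurap1l reads of that length can be told apart.

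RNA of genes whose products bind LURAP1 is in the table too. Myo18a, which encodes an unconventional myosin, was at 23.3, 23.9, 20.2, 20.1 and 20.3 FPKM in WT and 28.3, 24.8 and 38.3 FPKM in Lats1/2-null buds, which did not overlap (log2 fold change 0.46, adjusted limma p 0.267). The kinase gene Cdc42bpb was at a mean of 43.0 in WT and 44.1 FPKM in Lats1/2-null buds (adjusted limma p 0.889). Vnn1, which encodes a pantetheinase that the study names as an NFkB activator, was at 0.622 and 19.6 FPKM with an adjusted limma p of 0.0631.

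The rest of the pathway was read from 5 lists with 82 genes in the table besides the 10, of which 61 were tested. Of these 34 were higher and 27 lower in Lats1/2-null buds. Their median log2 fold change was 0.03, and none passed the adjusted limma threshold. At an unadjusted limma p under 0.05 there were 13 (21.3%, against 11.3% of all genes), 11 higher and 2 lower, and 12 did not overlap between the groups (19.7%, against 7.51%). No list was tested as a set. The groups also differed in epithelium and mesenchyme markers, and the part of that difference in these counts was not tested.

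**Figure D4:**
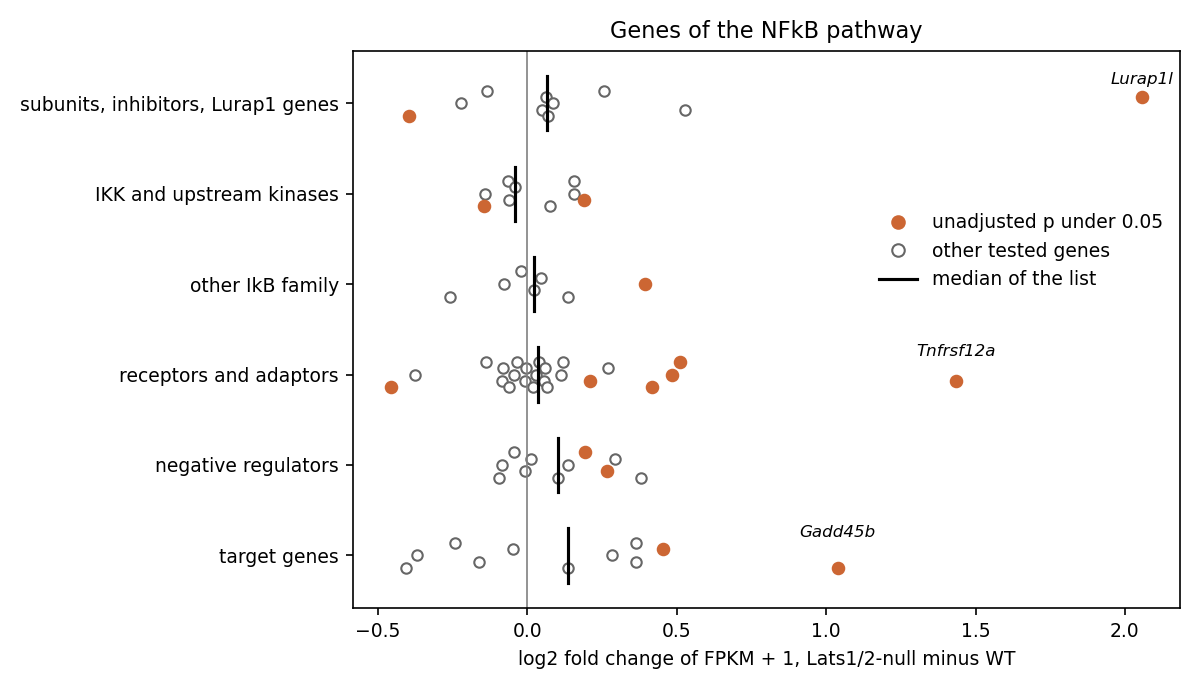
Log2 fold change of FPKM + 1 (Lats1/2-null minus WT) of each tested gene, by list, with the list's median as a bar and genes at an unadjusted limma p under 0.05 filled in orange. The medians lie between -0.04 and 0.14, and only Lurap1l, Tnfrsf12a and Gadd45b exceed 1.

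Of receptors and adaptors, 24 of 28 were tested, 14 higher and 10 lower, 6 of them at an unadjusted limma p under 0.05. Tnfrsf12a, the receptor for TWEAK, was at 1.80, 2.31, 2.41, 1.38 and 0.923 FPKM in WT and at 5.17, 3.45 and 13.2 FPKM in Lats1/2-null buds, all above WT (log2 fold change 1.43, adjusted limma p 0.202). As with Lurap1l, replicate 3 was the highest. Tnfrsf1a, the main TNF receptor, went the other way, at 15.0, 12.4, 11.6, 13.7 and 13.8 FPKM in WT and 10.3, 10.8 and 7.38 FPKM in Lats1/2-null buds, all below WT (log2 fold change -0.46, adjusted limma p 0.267). The adaptor Card10 was at means of 2.46 and 3.64 FPKM (adjusted limma p 0.304) and the kinase Irak1 at 19.8 and 23.1 FPKM (adjusted limma p 0.307). Rbck1, a subunit of the linear ubiquitin ligase, was at 18.3 and 19.0 FPKM.

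Of the IKK complex and the kinases upstream of it, 9 of 11 were tested, 4 higher and 5 lower, with a median log2 fold change of -0.04. Tbk1, an IKK-related kinase, was at means of 16.2 in WT and 18.6 FPKM in Lats1/2-null buds (log2 fold change 0.19, adjusted limma p 0.393). The adaptor of the kinase TAK1, Tab2, was at 61.3 and 55.4 FPKM (-0.15, adjusted limma p 0.439), and Map3k7, which encodes TAK1, at 28.3 and 27.1 FPKM. Among 7 other genes of the IkB kind, 4 were higher and 3 lower. Nfkbil1 was at 7.26 and 9.85 FPKM with overlapping groups (adjusted limma p 0.374), and Nkiras2, whose product binds IkB, at 6.09 and 6.75 FPKM.

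Negative regulators of the pathway numbered 11, of which 7 were higher and 4 lower. Tnip1, a partner of the deubiquitinase A20, was at 14.8 and 17.98 FPKM (log2 fold change 0.27, adjusted limma p 0.313), and Tollip at 13.7 and 15.8 FPKM (adjusted limma p 0.4001), both without overlap. Otulin, which removes linear ubiquitin, was at 17.8 and 22.0 FPKM and Commd1 at 108 and 101 FPKM, with overlap.

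Classical NFkB target genes were mostly near or under the limit of the table. Of 27, 11 passed the level filter, 6 higher and 5 lower, and 4 inflammatory targets, Cxcl2, Il6, Lcn2 and Saa3, were listed at 0 in all 8 buds. Gadd45b, a stress-response gene, was at 0.781, 1.51, 1.08, 2.01 and 1.90 FPKM in WT and at 2.24, 3.69 and 6.97 FPKM in Lats1/2-null buds, all above WT (log2 fold change 1.04, adjusted limma p 0.264). Bcl2l1, which encodes the survival protein Bcl-xL, was at 17.0, 15.3, 18.2, 19.1 and 15.4 FPKM in WT and at 20.5, 22.6 and 28.4 FPKM in Lats1/2-null buds, also without overlap (0.45, adjusted limma p 0.212). Sod2, the mitochondrial superoxide dismutase, was at 11.9 and 11.4 FPKM. Thus the target Nfkbia was lower while Gadd45b and Bcl2l1 were higher in every Lats1/2-null bud, each short of the adjusted threshold. By quantitative PCR at a later embryonic stage, the study reports its direct NFkB targets Nfkbia and Mmp9 as increased in pancreata lacking the Hippo kinases. Mmp9 was at 0.254 to 0.652 FPKM in WT and 0.157 to 0.528 FPKM in Lats1/2-null buds, with a mean under the level filter. The reason for the opposite direction of Nfkbia, the stage included, was not tested.

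The genes whose levels followed Lurap1l most closely over the 8 buds were Sorbs2 (Pearson r 0.992), Vill (0.991), Nap1l2 (0.984) and Eps8l2 (0.980). Vill and Eps8l2 encode actin regulators of epithelia and Sorbs2 an adaptor at actin structures. All 4 had higher means in Lats1/2-null buds, Eps8l2 from 3.25 to 30.5 FPKM. The 8 points share 2 genotypes, which also differ in epithelium markers. Within the 5 WT buds r was 0.991 for Sorbs2, 0.993 for Vill, 0.955 for Nap1l2 and 0.742 for Eps8l2. For Nfkb2 the closest genes were Nostrin (0.977), B230216N24Rik (0.947), Nbr1 (0.937) and Csnk1d (0.929), none of which separated the groups. These were picked as the highest of 13777 genes and carry no test.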

How the data were processed

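Pancreas buds of 8 mouse embryos, 5 WT and 3 Lats1/2-null by the labels, were profiled by stranded, ribosomal RNA-depleted RNA-seq. Per the study's methods and processing notes, reads were trimmed with cutadapt 1.12, checked with FastQC and aligned with TopHat2 2.1.0 to GRCm38/mm10, and the deposited FPKM values were computed by the authors with Cuffdiff 2.2.1. The FPKM are described as quantile normalized, yet the 8 columns do not share a distribution. Fragment numbers are estimates from FPKM steps and transcript lengths.

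FPKM were analysed as log2(FPKM + 1), so fold changes of low genes are understated. Genes whose mean reached 0.5 FPKM (13777 of 24341, of which 5450 are at 0 in every bud) were fitted with limma 3.58.1 (trend and moderated variance, R 4.3.3), with Benjamini-Hochberg adjustment at 0.05, and single genes were compared with an exact two-sided permutation test. The script was tested on simulated data with known changes. Figures and sequence matches used Python 3.11.15. Alternatives covered the pseudocount, level filter, scaling, trend, array weights, a replicate block and leaving out each bud. Promoters and gene models came from RefSeq (GRCm38.p6) and GENCODE M21.

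The 10 genes and the gene lists were chosen with earlier results of these data known. Named besides the members were, in each pathway list, up to 4 genes with the smallest limma p under 0.05 and the 2 most abundant, and the 4 genes most like Lurap1l and Nfkb2. Of the marker lists, sums and genes that bear on a member are given. Ptprc, Epcam, Cdh1, Psd, Psma6, Ppp2r3c, Pomgnt1, Mmp9 and the targets listed at 0 were added after their values were seen.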

Additional observations from a re-analysis of the deposited data

How the results depend on the processing

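Of the 10 genes, 7 kept their direction in all 16 alternative settings. The exceptions were Rel, which reversed with quantile normalization (-0.0034) and array weights (-0.082) and ranged from -0.040 to 0.17 when single buds were left out, Nfkbie with array weights (0.061), and Nfkb2, which ranged from -0.0027 to 0.13 when single buds were left out (log2 fold changes). When single buds were left out, the lowest values of Rel and Nfkb2 were those without WT replicate 3. The number of all genes past the adjusted limma threshold was 2, and became 18 with a pseudocount of 0.1 FPKM, 1 without the mean-variance trend and 174 with array weights, and ran from 0 to 69 when single buds were left out, with 69 without Lats1/2-null replicate 2, 19 without replicate 3 and 4 without WT replicate 4. Of the 10 genes, 0 passed, against 2 with array weights (Nfkbia at -0.41, Lurap1l at 1.96) and 0 to 1 when single buds were left out. That 1 was Lurap1l without Lats1/2-null replicate 2, at 2.28 in a range of 1.71 to 2.28. From 2 to 4 of the 10 did not overlap between groups when single buds were left out, with 4 without WT replicate 5 and 3 without Lats1/2-null replicate 1 or 3. With fewer buds, the groups of any gene separate more easily. The share of all genes without overlap was not computed for these settings, so these counts have no background to be read against. Apart from the fold changes with a pseudocount of 0.1 FPKM, which are larger for low genes by construction (Relb 0.49, Lurap1 1.07), the cause was not tested. Lurap1 was at 0.18 with array weights and 0.15 with the replicate block. With a minimum mean of 2 FPKM, Rel, Relb and Lurap1 gave no value.

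Buds with the same replicate number had correlations of 0.085, -0.097 and 0.069 of their deviations from the group means. These values cannot show whether the numbers stand for litters or batches, which the labels do not give. A fit with the replicate block on replicates 1 to 3 called 1 gene in all and 0 of the 10, with Lurap1l at 2.29 and Nfkbia at -0.46.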
